A study of Mus musculus with 10 samples.

Results

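The nonmuscle cytoskeleton genes described here are Actb, Actg1, Myh9, Flna, Tmsb4x, Tmsb10, Tubb5, Tuba1a, Tuba1b and Vim. They were chosen by name with earlier results of these data known, and all 10 had a row among the 14623 genes of the count table. The table holds single-cell transcriptomes of the stromal vascular fraction (SVF), the cells that remain of fat after collagenase digestion and removal of adipocytes, from inguinal white fat (iWAT) of mice aged 7 weeks. Bbs8 KO mice lack Bbs8, a subunit of the BBSome, which sorts cargo of the primary cilium, and Bbs8 WT mice carry the intact gene. The series text names 1 mouse per genotype, so the 5 samples listed for each genotype were taken as technical libraries, no test between genotypes was possible, and every interval given covers counting error only. Cell names carry 5 barcode sets per genotype, coded KO5 or KO6 and WT3 or WT4 with a p number. The methods of the study describe 2 arrays per sample with amplification reactions pooled, but no source used here ties the set codes to arrays or pools. Sets may therefore share an array, and their ranges are given as a description of spread within a genotype.

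Seq-Well S3 pairs single cells with barcoded beads in the wells of an array and counts each captured molecule once by its unique molecular identifier (UMI). The table held 8985 Bbs8 KO cells with 3144195 UMIs and 1929 Bbs8 WT cells with 715989 UMIs, with a median of 251 and 278 UMIs per cell. Of the cell barcodes, 36 occurred in more than 1 set, in 103 cells. Ttc8, the gene that encodes BBS8, had 0 UMIs in Bbs8 KO cells, which allows up to 0.954 UMIs per 1000000 (CPM), and 5 UMIs in Bbs8 WT cells. Clusters were named from fixed marker lists. Stromal clusters were named by a list that holds collagens, Dcn and Pdgfra. They were split by markers of the adipocyte progenitor populations P1, P2 and P3 and held 1539 Bbs8 KO and 682 Bbs8 WT cells. A further 3080 Bbs8 KO and 384 Bbs8 WT cells lay in 4 clusters without leading markers. Of these, 1 cluster came to 98.2% from the Bbs8 KO set KO5_p2 and another to 89.8% from KO6_p2.

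Beta- and gamma-actin, encoded by Actb and Actg1, build the actin filaments of nonmuscle cells. Nonmuscle myosin IIA (heavy chain Myh9) pulls on these filaments, filamin A (Flna) crosslinks them and anchors them to the membrane, and the thymosins beta 4 and beta 10 (Tmsb4x, Tmsb10) hold actin monomers in reserve. Alpha- and beta-tubulins (Tuba1a, Tuba1b, Tubb5) form microtubules, among them the axoneme of the primary cilium and the mitotic spindle, and vimentin (Vim) is the intermediate filament protein of mesenchymal cells. In fat, actin filaments and their tension are known to change when progenitors round up and become adipocytes.

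In mm10 the actin genes lie at chr5:142903115-142906754, minus strand (Actb), and chr11:120345690-120348542, minus strand (Actg1). Myh9 lies at chr15:77760587-77842175, minus strand, Flna at chrX:74223461-74249820, minus strand, Tmsb4x at chrX:167207093-167209315, minus strand, and Tmsb10 at chr6:72957347-72958748, minus strand. The alpha-tubulin genes are neighbours at chr15:98931425-98934565, minus strand (Tuba1b), and chr15:98949837-98953703, minus strand (Tuba1a). Tubb5 lies at chr17:35833921-35838306, minus strand, and Vim at chr2:13573927-13582826, plus strand. RefSeq promoter windows (GRCm38.p6, from 250 bases before to 50 after the start) were listed for 9 members, all but Actb. The CArG box, the element bound by serum response factor in many cytoskeletal genes, was found on either strand in the window of 1 of the 9, Actg1, and in 1.63% of all 32851 windows. The letters TATAAA, on either strand, were found in the windows of Myh9 and Vim, and in 13.6% of all windows. In the window of Myh9 they lay only on the strand opposite to the gene. The GC box GGGCGG, on either strand, was found in the windows of 8 members, all but Vim of the 9, and in 35.7% of all windows. The stretch around the CArG box of Actg1, the single match among the members, and that around the TATAAA of Vim, as an example of the second motif, are shown with the motif in capitals and its first base 90 and 32 bases before the RefSeq transcription start. Both of these starts lie inside the GENCODE genes given above. A match is a description of the letters and not a site.
Actg1, chr11:120348546-120348615, minus strand: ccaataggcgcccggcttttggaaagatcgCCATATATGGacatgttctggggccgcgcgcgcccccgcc
Vim, chr2:13574249-13574314, plus strand: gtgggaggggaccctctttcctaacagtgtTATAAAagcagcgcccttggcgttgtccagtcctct

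Several members share sequence with other genes, so their counts depend on how reads that fit several places were assigned. In GENCODE vM21 transcripts, 70.5% of the stretches of 61 bases, the length of the cDNA read, in Tuba1a and 73.0% in Tuba1b also occurred in another gene, and so did 56.0% in Actg1, 38.7% in Tmsb10 and 7.20% in Actb. For Flna, Tmsb4x, Tubb5 and Vim none did. In the last 400 bases, where reads of this assay gather, the share was 71.8% for Tmsb10, 51.8% for Tuba1b and 42.1% for Tuba1a but 0 for Actg1. Actg1 had 97 UMIs in all 10914 cells, against 36513 for Actb. Values of Tuba1a, Tuba1b and Tmsb10 are therefore uncertain, and those of Actg1 rest on few UMIs.

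Levels are given by cell class with both genotypes summed unless a genotype is named. Bbs8 KO gave most of the UMIs in every named class but mammary epithelial-like cells, so orders of classes lean on that genotype. Actb had 17149 CPM (95% interval 16313 to 18016) in mitotic cells (sets 11971 to 19849), 16109 CPM in monocyte-like, 14324 in T cell-like and 12891 in B cell-like cells. In the 3 stromal classes it had 6077 CPM in P2-like, 4147 in P1-like and 3581 in P3-like cells. Every set of T cell-like cells (8785 to 15456 CPM) lay above every set of the stromal classes, of which the highest was 7603 CPM. Actg1 had its highest summed value, 94.5 CPM, in monocyte-like cells (29.7 CPM in Bbs8 KO against 299 CPM on 16 UMIs in Bbs8 WT), and had 0 UMIs in endothelial-like cells, which allows up to 12.5 CPM.

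Myh9 followed another order. It had 2665 CPM (95% interval 2517 to 2819.9) in T cell-like and 2399 CPM (95% interval 2207 to 2604) in endothelial-like cells, and 391 CPM in P1-like cells at the low end. In Bbs8 WT alone, pericyte-like cells had the highest level of Myh9, 2908 CPM on 35 UMIs. All sets of endothelial-like cells (1999.5 to 3239 CPM) were above all sets of P2-like cells (508 to 1005 CPM). The cluster of pericyte-like cells was led by Myh11, Rgs5, Myl9 and Acta2, of which Myh11 and Acta2 are smooth muscle genes. It may hold vascular smooth muscle cells as well as pericytes. Flna was highest in pericyte-like cells, at 973 CPM (95% interval 733 to 1267), although sets there ran from 0 to 1995 CPM. That order held in Bbs8 KO (1102 CPM), whereas in Bbs8 WT pericyte-like cells had 499 CPM of Flna on 6 UMIs, below monocyte-like (598 CPM) and T cell-like cells (588 CPM). Tmsb4x had 6411 CPM (95% interval 6083 to 6753) in monocyte-like cells and 1158 CPM in P3-like cells. Tmsb10 was highest in T cell-like cells at 368 CPM (95% interval 314 to 428).

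Of the tubulins, Tubb5 had 2349 CPM (95% interval 2046 to 2684) in mitotic cells and between 383 and 797 CPM in the other named classes, with 1084 CPM in Bbs8 WT monocyte-like cells. Tuba1b was also highest in mitotic cells, at 598 CPM (95% interval 451 to 778). Tuba1a was instead highest in the stromal classes when the genotypes were summed, with 537 CPM in P2-like, 491 in P3-like and 435 in P1-like cells against 54.4 in B cell-like cells. In Bbs8 WT, monocyte-like cells had 318 CPM of Tuba1a on 17 UMIs, above P1-like cells (296 CPM on 29 UMIs). Vim had 2636 CPM (95% interval 2465 to 2815) in P1-like cells (sets 2219 to 3232) and similar values in P3-like and P2-like cells (2462 and 2365 CPM). Summed over genotypes it was lowest in B cell-like cells (368 CPM), whose highest set reached 1238 CPM, below every P1-like set. In Bbs8 WT, Vim had 2488 CPM in mitotic and 2187 CPM in monocyte-like cells, above P2-like cells (2112 CPM), and the lowest level was that of mammary epithelial-like cells (342 CPM, against 491 CPM in B cell-like cells). For none of the 10 members was a class separated from the next class in the order of levels: their set ranges overlapped. The plot of levels by class shows these orders. Clusters were built from the same table, in which of the 10 genes only Actg1 was among the features used for clustering, so levels by class are a description.

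**Figure D1:**
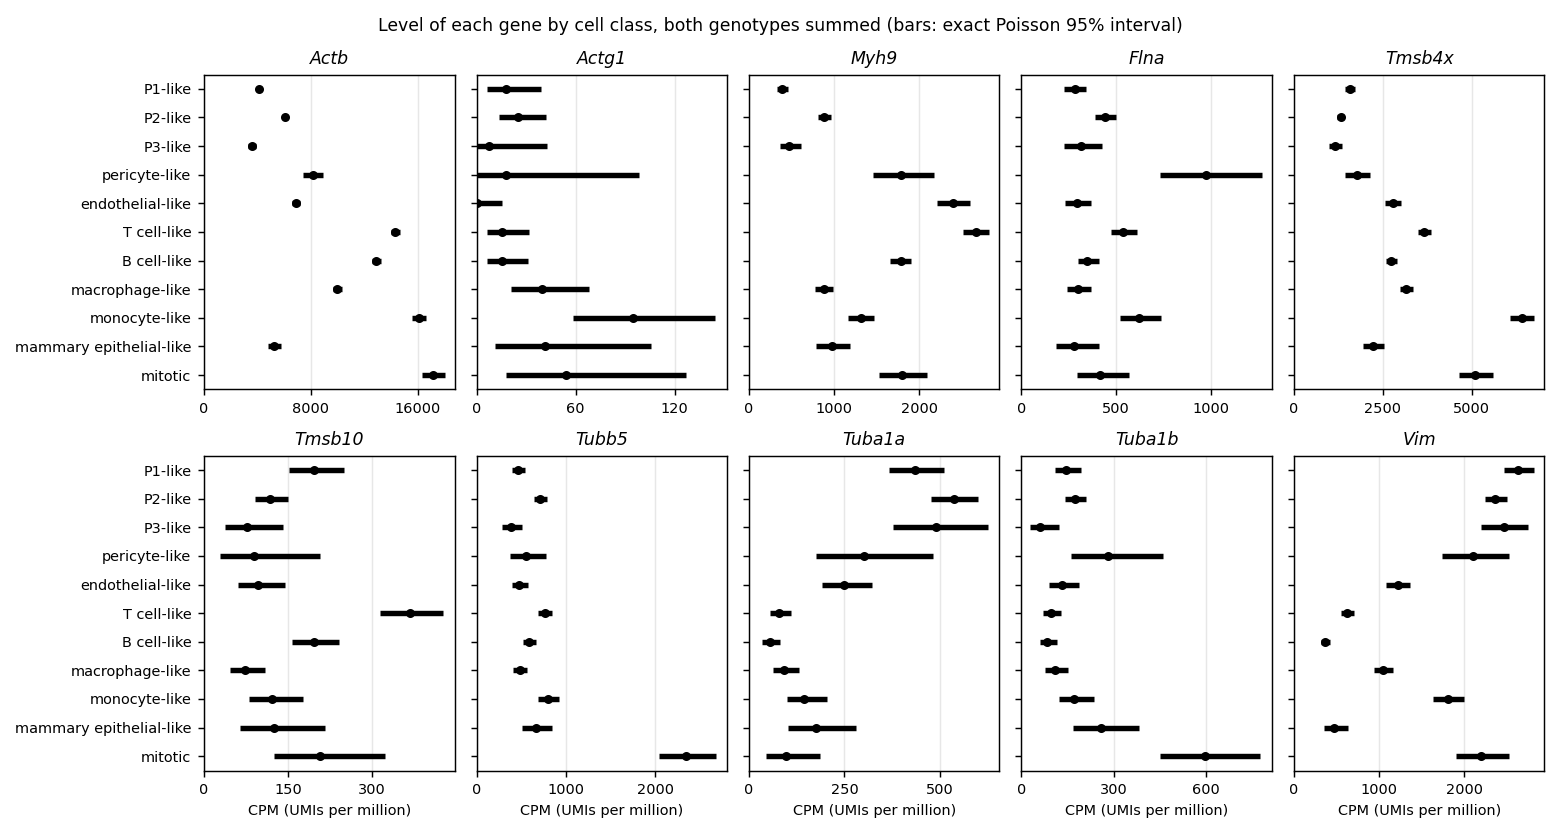
Level of each of the 10 genes (CPM, horizontal axis from 0, scale differing between panels) in the 11 named cell classes (rows), both genotypes summed, with bars for the exact Poisson 95% interval. Actb and Tmsb4x were highest in mitotic and monocyte-like cells, Myh9 in T cell-like and endothelial-like cells, Tuba1a and Vim in the stromal classes P1-like to P3-like (orders of the summed genotypes), and Tubb5 and Tuba1b peaked in mitotic cells (2349 and 598 CPM).

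The share of Tuba1a in the UMIs of both alpha-tubulin genes was 76.8% (95% interval 73.4 to 80.0, 664 UMIs) in all stromal-like cells and 14.1% (95% interval 6.64 to 25.0, 64 UMIs) in mitotic cells. T cell-like cells had 45.0% (95% interval 33.8 to 56.5, 80 UMIs) and endothelial-like cells 65.2% (95% interval 54.6 to 74.9, 92 UMIs). Within stromal-like cells the share was 75.1% (95% interval 70.9 to 78.9, 477 UMIs) in Bbs8 KO against 81.3% (95% interval 74.9 to 86.6, 187 UMIs) in Bbs8 WT, and set ranges overlapped. The share of Tmsb10 in the UMIs of both thymosin genes was 11.1% (95% interval 8.70 to 13.9, 594 UMIs) in P1-like and 9.13% (95% interval 7.85 to 10.5, 1830 UMIs) in T cell-like cells, but 1.86% (95% interval 1.23 to 2.70, 1451 UMIs) in monocyte-like cells. Within T cell-like cells it was 9.75% (95% interval 8.35 to 11.3, 1621 UMIs) in Bbs8 KO (sets 8.91 to 11.2%) against 4.31% (95% interval 1.99 to 8.02, 209 UMIs) in Bbs8 WT (sets 0 to 6.90%), the latter on 9 Tmsb10 UMIs. The log2 ratio of Tmsb10 in these cells (Bbs8 KO over Bbs8 WT) was 0.42, and 2.47 without the set WT4_p2. Actb made up 99.8% (95% interval 99.8 to 99.9, 32529 UMIs) of the UMIs of both actin genes in Bbs8 KO cells (sets 99.7 to 99.9%) and 98.9% (95% interval 98.6 to 99.2, 4081 UMIs) in Bbs8 WT cells (sets 97.7 to 99.5%). In stromal-like cells alone the set ranges of this share overlapped, at 99.6 to 99.9% and 97.6 to 100.0%. As 56.0% of the stretches of Actg1 also occur in other genes, these are shares of counted UMIs and may differ from those of the transcripts.

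**Figure D2:**
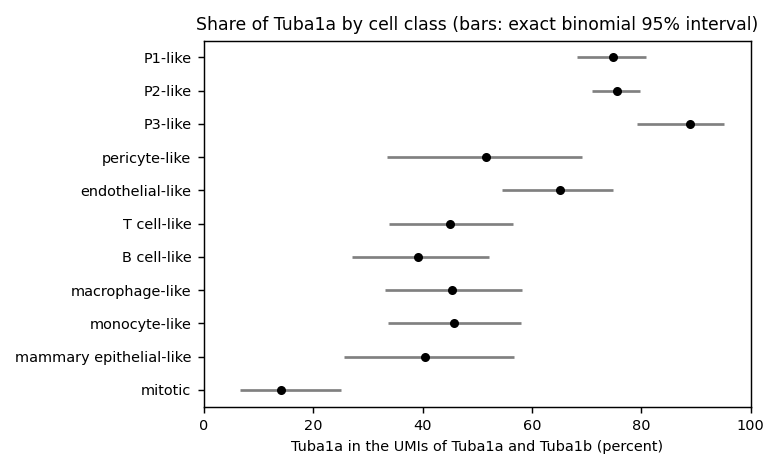
Share of Tuba1a in the summed UMIs of Tuba1a and Tuba1b (percent, horizontal axis) in the 11 named cell classes, both genotypes summed, with exact binomial 95% intervals as bars. The 3 stromal classes lay between 74.9 and 88.9%, and mitotic cells at 14.1%.

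Genes whose level followed that of a member over the 11 named classes were ranked by Pearson correlation of log2(CPM + 20) among 806 genes with at least 500 UMIs. The correlations are descriptive, over 11 points that share libraries. Actb was most like Arpc2 (0.99), Actr2 (0.95) and Cd52 (0.92), of which Arpc2 and Actr2 are subunits of the Arp2/3 complex that branches actin filaments. Tmsb4x was most like Psmb8 (0.96), H2-D1 (0.94) and Capzb (0.93), Myh9 most like Pak2 (0.89), Rbm39 (0.89) and Sf3b1 (0.89), and Flna most like Esyt1 (0.81), Psma2 (0.76) and Rock1 (0.75). Tubb5 was most like Nucks1 (0.95), Mki67 (0.89) and Mapre1 (0.89), where Mki67 marks dividing cells. Tuba1a was most like Slc38a10 (0.96), Serpinh1 (0.96) and Sparc (0.96), of which Serpinh1 is a collagen chaperone and Sparc a matrix protein, and Vim most like Capns1 (0.90), Capn2 (0.90) and Tppp3 (0.89). Tmsb10 was most like Prrc2c (0.87), Chd3 (0.86) and Fkbp8 (0.84). Tuba1b and Actg1 were not in this ranking, and the UMIs of Actg1 were under the minimum.

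Actb was the member with the largest ratio between the genotypes among those with at least 200 UMIs in stromal-like cells. In all stromal-like cells the 5 Bbs8 KO sets had 5102, 5748, 5976, 6100.4 and 6483 CPM of Actb. The 5 Bbs8 WT sets had 2705, 3091, 3304, 3353 and 3418 CPM. Every Bbs8 KO set was above every Bbs8 WT set. Summed, Actb had 5926 CPM (95% interval 5749 to 6107) in Bbs8 KO against 3263 CPM (95% interval 3064 to 3471) in Bbs8 WT cells, a log2 ratio (Bbs8 KO over Bbs8 WT, with 5 CPM added to both) of 0.86 (95% interval 0.76 to 0.96). Genes with a ratio past 0.5 in size were counted as past the fold rule, and genes with all sets of a genotype above all of the other as separate. Of 604 genes with at least 200 UMIs in these cells, 12.3% were past the fold rule upward, 13.2% downward, 6.13% were separate with Bbs8 KO above and 7.28% with Bbs8 WT above. Of the members, 7 had 200 UMIs there. 1 of the 7 (Actb) was past the fold rule upward, 2 (Actb and Tubb5) were separate with Bbs8 KO above, and 0 were called downward under either rule. The median ratio was 0.27 over the 7 members and -0.03 over the 604 genes, and the median over the members was 0.043 without cells that held an immune marker UMI. Actb was at rank 23 from the highest ratio among the 604 genes, and at rank 2 among 76 genes with at least 1000 UMIs. As the members were chosen with earlier results of these data known, these counts, medians and ranks are a description.

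Markers of other cell types moved with the genotype in the same stromal-like cells. The 8 T cell markers summed to 594 CPM in Bbs8 KO (sets 290.1 to 738) against 147 in Bbs8 WT (sets 0 to 201), with 8 of 8 higher in Bbs8 KO. The 8 B cell markers summed to 1006 CPM (560.3 to 1323) and 267 CPM (118 to 313), with 8 of 8 higher. Macrophage markers summed to 557 and 182 CPM, with 7 of 8 higher and overlapping sets (300.1 to 713 and 39.2 to 320.4). None of these markers was at 0. Markers of mitotic cells summed to 227 and 22.8 CPM. At least 1 UMI of a T cell, B cell, dendritic, macrophage or monocyte marker was found in 52.9% of Bbs8 KO stromal-like cells (95% interval 50.4 to 55.4, 814 of 1539) and 25.2% of Bbs8 WT ones (22.0 to 28.7, 172 of 682). In the 725 and 510 cells without such a UMI, Actb had 5238 CPM in Bbs8 KO (sets 4215 to 6011) against 3156 CPM in Bbs8 WT (sets 2473 to 3353), a log2 ratio of 0.73, and the sets remained separate. That selection was chosen after seeing the data. The part of RNA from other cells in the level of Actb was otherwise not tested.

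**Figure D3:**
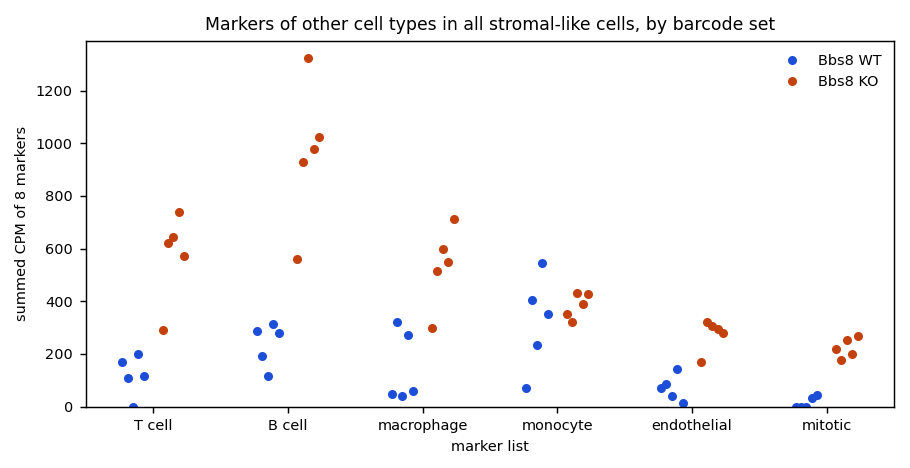
Summed CPM of the 8 markers of each of 6 other cell types (horizontal axis) in all stromal-like cells, with a point for each of the 5 barcode sets of Bbs8 WT (blue) and Bbs8 KO (orange). All Bbs8 KO sets lay above all Bbs8 WT sets for T cell, B cell, endothelial and mitotic markers, while macrophage and monocyte markers overlapped.

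Of the motor and crosslinker, neither was separate in stromal-like cells. Myh9 had 520.2, 705, 718, 752 and 775 CPM in the Bbs8 KO sets and 314, 479, 483, 641 and 714 CPM in the Bbs8 WT sets, which overlapped, with a log2 ratio of 0.27 (95% interval 0.03 to 0.53), which was 0.50 without the set WT4_p2 and 0.59 at clustering resolution 0.4. Flna had 260.1, 352, 422, 447 and 476 CPM in Bbs8 KO against 264, 265, 314, 336 and 363 CPM in Bbs8 WT, also overlapping, with a log2 ratio of 0.43 (95% interval 0.09 to 0.79). In cells without an immune marker UMI the ratios were -0.09 for Myh9 and -0.06 for Flna.

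The thymosins did not separate either. Tmsb4x had 1211, 1327, 1348, 1442 and 1487 CPM in the Bbs8 KO sets and 887, 1260.3, 1294, 1359.8 and 1676 CPM in the Bbs8 WT sets, so that the lowest and the highest sets were both Bbs8 WT. Its log2 ratio was -0.03 (95% interval -0.20 to 0.14). Tmsb10 had 142 UMIs in stromal-like cells, too few for the background, with 146 CPM in Bbs8 KO against 120.5 in Bbs8 WT and a log2 ratio of 0.27 (95% interval -0.27 to 0.86), which was 0.71 without the set WT4_p2.

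Tubb5 was the other member with separate sets. It had 516, 583, 620.3, 689.6 and 775 CPM in the Bbs8 KO sets and 431, 431, 473, 497 and 513 CPM in the Bbs8 WT sets, with 516 and 513 CPM facing each other at the gap and a log2 ratio of 0.43 (95% interval 0.16 to 0.71), short of the fold rule. In cells without an immune marker UMI, Tubb5 had 666 CPM in Bbs8 KO (sets 452 to 994) against 494 in Bbs8 WT (sets 339.5 to 549), and the sets overlapped. Tuba1a had 437, 459, 476, 526 and 630.3 CPM in Bbs8 KO against 363, 431, 497, 570.2 and 627 CPM in Bbs8 WT, with a log2 ratio of 0.01 (95% interval -0.27 to 0.29). Tuba1b had 154 UMIs and a log2 ratio of 0.52 (95% interval -0.01 to 1.13), which dropped to 0.16 without the set WT4_p2. Vim, the mesenchymal filament, had 2268, 2329, 2449, 2703 and 2831 CPM in Bbs8 KO against 2051, 2325, 2444, 2447 and 2979.5 CPM in Bbs8 WT, with a log2 ratio of 0.05 (95% interval -0.07 to 0.18). The plot of stromal sets shows Actb and Tubb5 apart and the other 8 genes overlapping. Actg1 had 21 UMIs, with 13.9 CPM in Bbs8 KO against 35.8 CPM in Bbs8 WT, and a log2 ratio of -1.11 (95% interval -2.75 to 0.01).

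**Figure D4:**
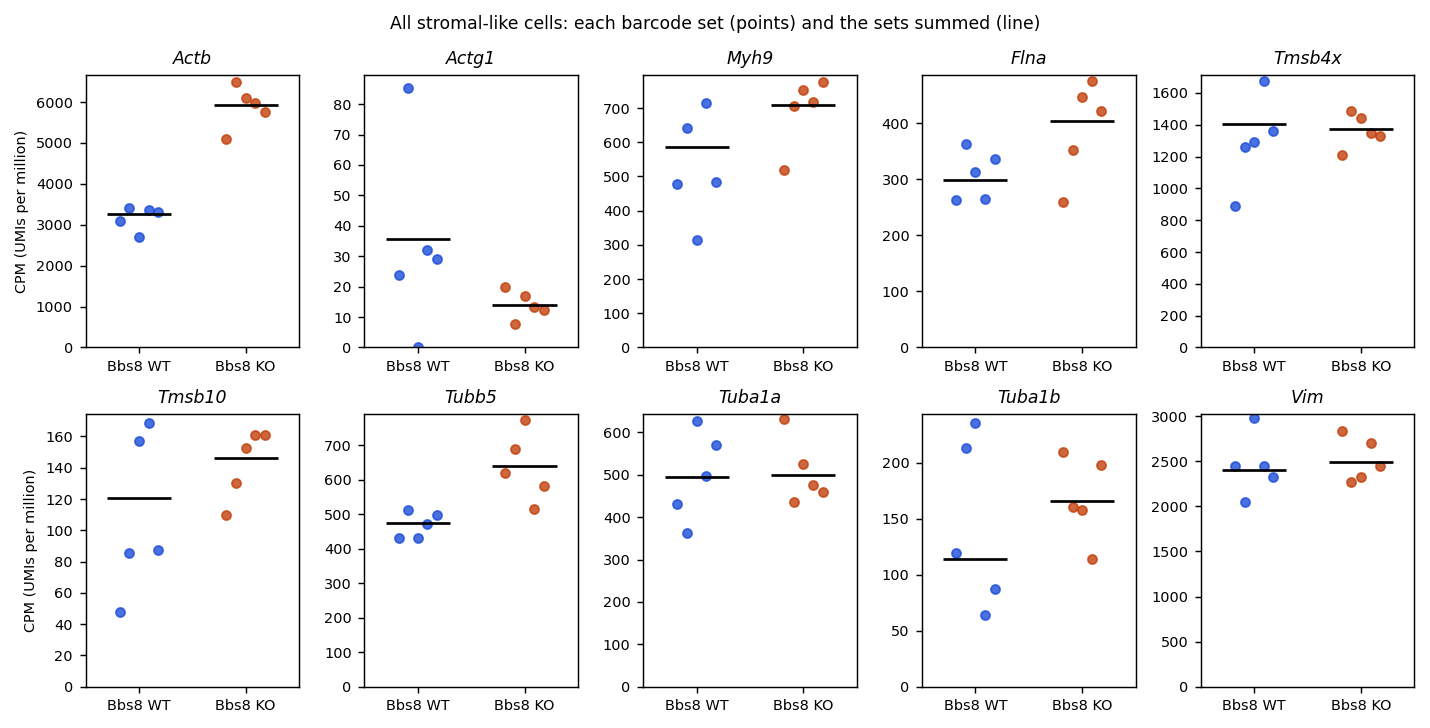
CPM of each of the 10 genes (vertical axis from 0, scale differing between panels) in all stromal-like cells, with a point for each barcode set of Bbs8 WT (blue) and Bbs8 KO (orange) and a line for the sets summed. The Actb points of Bbs8 KO (5102 to 6483 CPM) lay above those of Bbs8 WT (2705 to 3418 CPM), whereas those of Vim overlapped.

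Actb was higher in Bbs8 KO in each of the 11 named classes when the sets were summed. In P1-like cells the Bbs8 KO sets had 4156, 4646, 4989, 5045 and 5362 CPM and the Bbs8 WT sets 1634, 2200.3, 2565, 2814 and 3019.5 CPM, separate as in 8.70% of 161 genes, with a log2 ratio of 1.02 (95% interval 0.82 to 1.23). P2-like cells had 6257 to 7603 CPM against 3178 to 4286 CPM, a log2 ratio of 0.77 (95% interval 0.65 to 0.89), separate as in 6.51% of 261 genes. The sets of P3-like cells overlapped, at a log2 ratio of 0.89 (95% interval 0.58 to 1.22). Outside the stroma, endothelial-like cells had 7370.3 to 8444 CPM against 3445 to 5430.0 CPM, a log2 ratio of 0.94 (95% interval 0.72 to 1.16), separate as in 11.2% of 98 genes. Macrophage-like cells had 9534 to 11320.0 CPM against 6564 to 9374 CPM, a log2 ratio of 0.54 (95% interval 0.39 to 0.69), separate as in 4.61% of 152 genes. T cell-like cells had 14239 to 15456 CPM against 8785 to 12573 CPM, a log2 ratio of 0.47 (95% interval 0.32 to 0.64), separate as in 12.4% of 193 genes. In B cell-like cells the ratio was 0.21 (95% interval 0.06 to 0.37) with overlapping sets, below the median of 0.33 over 199 genes, and the median over genes was 0.14 in T cell-like and 0.09 in endothelial-like cells. With TMM and DESeq2 size factors, which move all genes of a class by 1 shift, the ratio of Actb was 0.81 and 1.07 in T cell-like and 0.63 and 0.86 in B cell-like cells. Its place relative to the median of all genes is the same under these scalings. In B cell-like cells it was 0.05 without the set WT4_p2, and in macrophage-like cells it was 0.37 without the 6% of cells with the most UMIs. In T cell-like cells the Bbs8 WT sets held 3 to 65 cells each. Ratios of monocyte-like and mitotic cells were 0.34 and 0.30, with overlapping sets. Those of mammary epithelial-like and pericyte-like cells were 1.05 and 0.88, also with overlapping sets. In mammary epithelial-like cells pericyte markers summed to 228 against 2069 CPM (Bbs8 KO against Bbs8 WT). Immune markers went the other way there, with B cell markers at 1593 against 342 CPM and T cell markers at 797 against 247 CPM. Macrophage markers were at 1616 against 626 CPM and monocyte markers at 933 against 342 CPM. B cell markers were higher in Bbs8 KO in T cell-like, macrophage-like and endothelial-like cells too, at 1499.9 against 248, 2174 against 880.0 and 1382 against 285 CPM. Other markers were lower in Bbs8 KO. In T cell-like cells pan-stromal markers summed to 1512 against 3558 CPM, macrophage markers to 149 against 712 CPM and monocyte markers to 319.9 against 743 CPM, and in endothelial-like cells pericyte markers summed to 974 against 1936 CPM. Their part in these ratios was not tested.

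Tubb5, Tmsb10 and Myh9 also had separate sets in named classes. In macrophage-like cells Tubb5 had 366, 527, 529.7, 672 and 673 CPM in the Bbs8 KO sets and 0, 79.2, 106, 130.4 and 260.4 CPM in the Bbs8 WT sets, a log2 ratio of 2.11 (95% interval 1.07 to 3.49) on 152 and 7 UMIs. Among macrophage-like cells with at least 200 detected genes, clustered anew, this ratio was 0.43. Macrophage markers in this class summed to 18059 CPM (sets 16223 to 20612) against 23725 CPM (sets 21872 to 28804) and T cell markers to 960.1 against 251 CPM (Bbs8 KO against Bbs8 WT), and their part in the ratio was not tested. Tmsb10 was separate there as well, on 23 UMIs in Bbs8 KO against 1 in Bbs8 WT. Both genes were under the 200 UMIs needed for the background there, which was 4.61% of 152 genes. Tmsb10 was separate in mitotic cells too, on 18 and 1 UMIs (113 to 488 CPM against 0 to 95.01 CPM), again under the 200 UMIs of the background, which was 8.70% of 23 genes. In B cell-like cells Myh9 had 1698, 1763, 1848, 1916 and 1967 CPM in the Bbs8 KO sets and 206, 505, 1174, 1594 and 1655 CPM in the Bbs8 WT sets, a log2 ratio of 0.61 (95% interval 0.15 to 1.11), separate as in 15.6% of genes. The Myh9 ratio was 0.10 without integration of the sets and 1.09 without the set WT4_p2. In these cells pan-stromal markers summed to 1588 against 4662 CPM (Bbs8 KO against Bbs8 WT), mitotic markers to 86.6 against 1074 CPM and B cell markers to 14763 against 10367 CPM, and their part in the ratio of Myh9 was not tested. In P2-like cells Tubb5 was separate, with 692 to 853 CPM against 532 to 636 CPM, where 6.51% of genes were. Mitotic markers in P2-like cells summed to 227 against 30.7 CPM, and their part in this ratio was not tested.

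Members other than Actb and Tmsb4x were past the fold rule with overlapping sets on at least 100 UMIs in both directions. Upward, Tubb5 had a log2 ratio of 1.21 (95% interval 0.37 to 2.24) in T cell-like cells, where 28.5% of 193 genes were past the rule upward, and this ratio was -0.023 in cells with at least 200 detected genes. In P1-like cells Tubb5 was at 0.52 (95% interval -0.03 to 1.11) and Tuba1a at 0.72 (95% interval 0.14 to 1.37). Mitotic markers summed to 244 against 20.4 CPM (Bbs8 KO against Bbs8 WT) in P1-like cells, but to 85.3 against 217 CPM in T cell-like cells. Downward, Tubb5 was at -0.64 (95% interval -1.20 to -0.04) in B cell-like and -0.62 (95% interval -1.08 to -0.14) in monocyte-like cells, with 11.1% of genes past the rule downward in the former. Mitotic markers summed to 86.6 against 1074 CPM (Bbs8 KO against Bbs8 WT) in B cell-like and 302 against 972 CPM in monocyte-like cells. Without the set WT3_p3 the B cell-like ratio of Tubb5 was -0.060. Vim was at -0.72 (95% interval -1.26 to -0.15) in T cell-like cells (13% of genes downward), and at -0.12 with DESeq2 size factors, beside pan-stromal markers at 1512 against 3558 CPM and macrophage markers at 149 against 712 CPM. This ratio of Vim was -0.38 without the set WT4_p3, -1.22 without WT4_p2 and -1.47 in cells with at least 200 detected genes. Myh9 was at -0.97 (95% interval -1.58 to -0.34) in pericyte-like cells, with 1484 CPM in Bbs8 KO against 2908 CPM in Bbs8 WT. Pan-stromal markers there summed to 6925 against 14540.0 CPM, B cell markers to 1102 against 0 CPM and mammary epithelial markers to 0 against 332 CPM, and the Bbs8 WT sets held as few as 2 of 34 cells. The part of these markers in the ratios was not tested. The values with under 200 UMIs, those of P1-like, monocyte-like and pericyte-like cells, have no background share.

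Tmsb4x, which binds the actin monomer, was past the fold rule downward in monocyte-like, T cell-like, B cell-like and mitotic cells, as were 16.2% of 80, 13% (25) of 193, 11.1% of 199 and 13% (3) of 23 genes with at least 200 UMIs there. In monocyte-like cells it had 4362, 4625, 5814, 6356 and 6364 CPM in the Bbs8 KO sets and 6816, 8338, 8708, 9714 and 11009 CPM in the Bbs8 WT sets. All Bbs8 WT sets were above, as in 3.75% of 80 genes, and the log2 ratio was -0.81 (95% interval -0.97 to -0.66). Ratios were -0.83 (95% interval -1.05 to -0.61) in T cell-like, -0.64 (95% interval -0.90 to -0.37) in B cell-like and -0.58 (95% interval -0.86 to -0.29) in mitotic cells, with overlapping sets. In pericyte-like cells, where Tmsb4x had 100 UMIs, the ratio was -0.52 (95% interval -1.17 to 0.16). The T cell-like ratio was -0.50 with TMM and -0.23 with DESeq2 size factors, and the B cell-like ratio was -0.22 with TMM and 0.007 with DESeq2 size factors, under the same shift of all genes. Other scalings were not computed in monocyte-like, mitotic and pericyte-like cells. Actb in the same monocyte-like cells had a log2 ratio of 0.34 (95% interval 0.22 to 0.46). Markers of other cell types also moved there, with Bbs8 KO given first. Dendritic markers summed to 397 CPM (sets 359 to 446) against 18.7 CPM (sets 0 to 121), macrophage markers to 3049 CPM (sets 2257 to 4031) against 4916 CPM (sets 3129 to 6111), mitotic markers to 302 CPM (sets 139 to 420.0) against 972 CPM (sets 315 to 2177) and B cell markers to 1424 CPM (sets 880.1 to 1876) against 523 CPM (sets 136 to 899). Macrophage markers were at 149 against 712 CPM in T cell-like and 220.1 against 859 CPM in B cell-like cells. In mitotic cells B cell markers summed to 1381 against 3640.2 CPM, macrophage markers to 4654 against 6313 CPM, monocyte markers to 1209.8 against 1889 CPM and T cell markers to 2405 against 1521 CPM. Their part in the ratios of Tmsb4x was not tested.

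**Figure D5:**
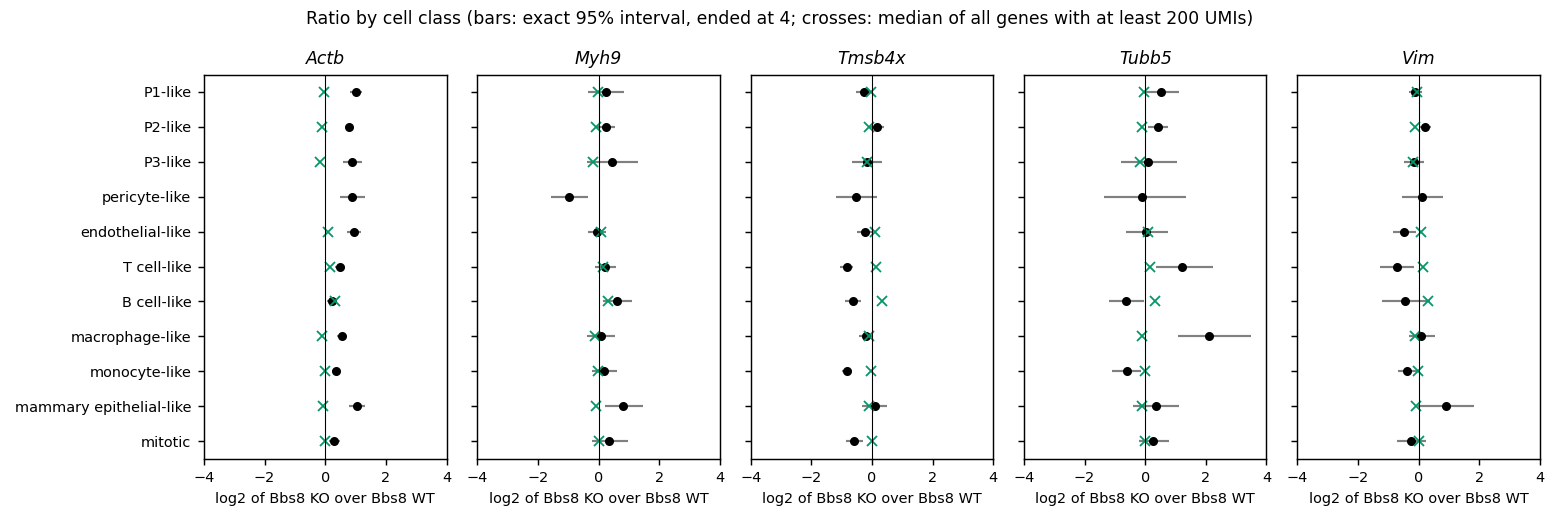
Log2 ratio of Bbs8 KO over Bbs8 WT (horizontal axis) for 5 genes in the 11 named classes (rows), with exact 95% intervals as bars and a cross for the median of all genes with at least 200 UMIs in the class, where at least 20 genes reached that. Actb lay to the right of 0 in every class, from 0.21 in B cell-like to 1.05 in mammary epithelial-like cells (0.86 in B cell-like cells with DESeq2 size factors), while Tmsb4x reached -0.83 in T cell-like cells.

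Sums over all cells gave other directions for several members. Vim had 1377 CPM in Bbs8 KO against 1796 CPM in Bbs8 WT, a log2 ratio of -0.38 (95% interval -0.47 to -0.29), and Tuba1a 234 and 318 CPM, a log2 ratio of -0.43 (95% interval -0.66 to -0.22). Both had all Bbs8 WT sets above, as in 8.66% of 3659 genes. Within stromal-like cells their ratios were 0.05 and 0.01. Stromal-like cells were 1539 of the 8985 Bbs8 KO and 682 of the 1929 Bbs8 WT cells, and the 8 pan-stromal markers summed over all cells to 24272 and 44093 CPM. Actb, Myh9 and Tmsb10 had all Bbs8 KO sets above, as in 14.7% of genes, at log2 ratios of 0.87, 0.58 and 0.59. In sums over all cells, a change in the mix of cells and a change within cells cannot be told apart. Actg1 had all Bbs8 WT sets above, with 54 UMIs in Bbs8 KO against 43 in Bbs8 WT.

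Partner genes of the cytoskeleton were counted in stromal-like cells from lists chosen with earlier results of these data known, so the counts are a description. There 12.3% of the 604 genes were past the fold rule upward and 6.13% separate with Bbs8 KO above. Of 16 genes of nonmuscle myosin and actin crosslinking, 8 had 200 UMIs, of which 2 were past the fold rule upward and separate with Bbs8 KO above and 0 downward, with a median of 0.32. These were the myosin light chain Myl12a (305 against 182 CPM, a log2 ratio of 0.73 (0.31 to 1.19)) and the tropomyosin Tpm4 (436 against 264 CPM, a log2 ratio of 0.71 (0.37 to 1.10)). Of 16 genes of actin turnover and branching, 5 had 200 UMIs and 2 were called upward under both rules, with a median of 0.16. These were the Arp2/3 subunits Actr3 (252 against 104 CPM, a log2 ratio of 1.24 (0.73 to 1.87)) and Arpc2 (553 against 289.8 CPM, a log2 ratio of 0.92 (0.60 to 1.28)). Of the 3 membrane linkers, 2 had 200 UMIs, of which 1 was past the fold rule upward with overlapping sets. The 10 tubulins and microtubule partners had 1 and the 7 intermediate filament and lamin genes 2 with 200 UMIs, and 0 of these were called. Of the 52 partner genes, 34 had under 200 UMIs, and 2 of these, Ezr (75.2 against 6.51 CPM, a log2 ratio of 2.80 (1.61 to 6.61)) and Lasp1 (119.8 against 52.1 CPM, a log2 ratio of 1.13 (0.42 to 2.07)), were past both rules. They were 2 of the 24 partner genes with 50 to 199 UMIs, against 2.75% of all 2799 genes in that range. Ezr rested on 2 UMIs in Bbs8 WT. Of the 10 genes of the dissociation response, which collagenase digestion can induce, 1 (Egr1) had 200 UMIs and was past the fold rule downward, at -0.75. T and B cell markers moved with the genotype in these same cells, as given above.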

How the data were processed

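The 10 genes, the cell type markers and the partner lists were chosen with earlier results of these data known. Libraries were demultiplexed by the authors with bcl2fastq (v2.20) and aligned with STAR to mm10, and the deposited values are raw UMI counts per gene and cell. The authors kept cells with 100 to 1000 genes and at most 20% mitochondrial reads. Whether their thinning of deeper libraries preceded the deposit is not given in the sources used here. The table named no sample, so its columns were mapped to a genotype and a barcode set only. No doublet caller was run, and the 6% of cells with the most UMIs in each set were left out as an alternative.

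The 10 sets were integrated in Seurat (v5.3.0, R 4.3.3) with 2000 variable features and 30 dimensions and clustered by the Louvain algorithm at resolution 0.8. Clusters under 60 cells were dropped. Each cluster took the name of the marker list whose genes had the highest average log2 fold in it, if that was over 0.5 (with 20 CPM added) and at least 3 markers were past 0.5. These cut-offs follow an earlier session that had seen the clusters, so class names are rebuilt and may differ from those of the study. UMIs were summed per class, genotype and set, and scaled to CPM by all UMIs of the class. Intervals (95%) are exact Poisson for CPM, Clopper-Pearson for shares and exact conditional for ratios, computed in Python 3.11.15 with SciPy 1.17.1, and the limit of a 0 is 3 counts. With 1 mouse per genotype there was no test. Ratios and their intervals were tested on simulated data. TMM (edgeR 4.0.16) and DESeq2 (1.42.0) size factors served as other scalings. Named were the 10 members, up to 10 partner genes past both rules in stromal-like cells, and the 3 genes most like each member. Gene positions come from GENCODE vM21 on mm10, while the authors counted with vM16 of the same build.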

Additional observations from a re-analysis of the deposited data

Results flagged for a closer look

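Of 50 groups of 5 barcode sets (the members with at least 200 UMIs in stromal-, endothelial-, macrophage-, T cell- and B cell-like cells, per genotype), 4 held a set farther from the rest than Dixon's 95% limit. Chance gives about 1 in 20 such groups. Myh9 in stromal-like cells had 520.2 CPM in the Bbs8 KO set KO5_p2, against 705 to 775 CPM in the other 4. Actb in endothelial-like cells had 8444 CPM in KO5_p2, against 7370.3 to 7587 CPM. Flna in T cell-like cells had 2928 CPM in the Bbs8 WT set WT3_p1, against 0 to 656 CPM. Tubb5 in B cell-like cells had 3029.5 CPM in the Bbs8 WT set WT3_p3, against 465 to 828 CPM. The Bbs8 WT sets of T cell-like and B cell-like cells were small, with as few as 3 and 8 cells.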

How the results depend on the processing

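With 1 mouse per genotype, the spread between animals is unknown, and the values below cover 16 other settings in stromal- and endothelial-like and 15 in the other cells. The log2 ratio of Actb in stromal-like cells (0.86) stayed past the fold rule in all of them: it was 0.69 with TMM, 0.65 with DESeq2 size factors, 0.96 at resolution 0.4, 0.98 with clusters built without cytoskeletal genes, 0.66 with cells called by markers, and 0.73 without cells that held an immune marker UMI, and leaving out each set in turn gave 0.83 to 0.89. With DESeq2 size factors the ratio of Actb was 1.07 in T cell-like (0.47) and 0.86 in B cell-like cells (0.21), by a shift common to all genes. The median over members in stromal-like cells (0.27) was 0.067 with DESeq2 size factors and 0.043 without cells that held an immune marker UMI. In T cell-like cells (0.04) it was 0.64 with DESeq2 size factors, and in B cell-like cells (-0.21) it was 0.20 with TMM and 0.43 with DESeq2 size factors. The lowest median over the other settings was -0.425 in T cell-like and -0.394 in B cell-like cells. These scalings shifted all genes, by up to 0.65 in B cell-like cells. Several ratios past the fold rule changed sign, all but those of Tmsb4x and Tubb5 on under 50 UMIs. In macrophage-like cells Tuba1b was -0.47 with at least 200 genes per cell and -0.093 with marker calls. In T cell-like cells Actg1 was 0.23 with equal weight per set, 0.86 with at least 200 genes, 2.18 with marker calls and -1.33 to 1.94 when leaving out each set (1.94 without WT4_p2), and Tubb5 was -0.023 with at least 200 genes. In B cell-like cells Tmsb4x and Tubb5 were both 0.007 with DESeq2 size factors, Actg1 was 1.88 with at least 200 genes, 2.14 without integration, 2.17 with marker calls and -1.70 to 1.93 when leaving out each set (1.93 without WT3_p1), and Tuba1b was 0.38 without integration. DESeq2 size factors move all genes of a class alike, which gives the change of Tmsb4x and Tubb5 in B cell-like cells. The cause of the others was not tested. No paired analysis was possible because the columns carry no replicate number of the labels.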
